A study of Danio rerio with 8 samples.

Results

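The genes described here are those of zebrafish whose symbols mark subunits and regulators of the proteasome (psma, psmb, psmc, psmd, psme, psmf or psmg followed by a digit). A RefSeq table of zebrafish genes holds 59 such symbols. By RefSeq accession, 53 of them were found among the 15600 transcript rows of the deposited files, and 38 of the 4577 rows with enough signal to be tested are among these 53. The 6 symbols that no row carried were psma6l, psmb11a, psmb11b, psme4a, psme4b and psmg4. Of the 53 genes, 9 belong to the alpha rings and 12 to the beta rings of the core, 8 carry an ATPase name, 16 a lid or base name, and 8 an activator, inhibitor or assembly name. The names psmc3ip, a meiotic recombination cofactor, and psme3ip1, a protein that binds the activator Psme3, match by spelling although neither protein is a subunit, so both were left out of all sums, which cover 51 genes.

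RNA from zebrafish livers was sequenced as 3' RNA-SAGE libraries on the SOLiD platform, in which each polyadenylated transcript is represented by a short tag near its 3' end. There were 4 groups of 2 libraries. M+D+ fish carried Tg(fabp10:TA; TRE:Myc; krt4:GFP) and were kept on doxycycline, and the submitters call their libraries liver tumors. M-D+ fish were wild-type siblings on doxycycline. M+D- fish carried the transgene without doxycycline. M-D- fish were wild-type siblings without doxycycline. In the transgene, the liver promoter fabp10 drives a transactivator that needs doxycycline, TRE places Myc under that transactivator, and krt4:GFP is a reporter. Treatment began at 21 days after fertilization, in 6-L tanks of around 25 adults. The labels do not say which Myc gene was used, nor do they tell whether replicate libraries came from different fish or different pools. The p-values therefore reflect variation among these libraries, part or all of which may be technical.

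The proteasome is the chamber in which cells degrade proteins that carry a ubiquitin tag. Its core is a stack of alpha rings, which gate the entrance, around beta rings, which hold the catalytic sites. A cap sits on the core: its base contains the ATPases that unfold the substrate, and its lid removes the ubiquitin. Other activators can replace the cap, and in mammals interferon exchanges the catalytic beta subunits for inducible ones that favour peptides for antigen presentation.

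Library totals ran from 1682372 tags (M-D+ library 1) to 6399930 tags (M+D+ library 1), so that 3 tags were worth 0.469 to 1.78 CPM (tags scaled to an equal library total). The M-D+ libraries stood apart from the other 6. The median tested row had 8.44 and 9.78 CPM in the M+D+ libraries, 22.6 and 19.3 CPM in M-D+ libraries 1 and 2, and 10.5 to 12.6 CPM in the 4 libraries without doxycycline, and the 50 most abundant rows took a smaller share of the tags in both M-D+ libraries, with 53.1% in library 1, than in the other 6 (61.4% to 71.2%). Trimmed mean of M-values (TMM) scaling, which makes the typical row equal between libraries, gave factors of 1.71 and 1.42 in M-D+ and 0.701 to 0.961 in the others. On deposited CPM the median of all tested rows was 1.04 lower on the log2 scale in M+D+ than in M-D+ and 0.72 higher in M-D+ than in M-D-. After TMM the same medians were -0.12 and -0.03. Values below are deposited CPM unless TMM is named, and results are set against these medians.

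Signal differed widely between subunits that every proteasome needs. The alpha subunit psma1 had 144 to 300.4 CPM over the 8 libraries, whereas the beta subunit psmb1 had 0 to 1.05 CPM and the lid subunit psmd13 0 to 0.35 CPM. The ATPases psmc3 and psmc6 had 0.63 to 4.76 CPM and 0 to 5.35 CPM. Levels are therefore compared between libraries for the same gene, or as sums over the same genes, and not between genes. Of the 15 listed genes that were not tested, 8 stayed below 5 CPM in every library. A further 7 tested genes (psma5, psmb5, psmb6, psmb12, psmd3, psmd10 and psme3) reached 5 CPM in a pair of libraries only with the help of M-D+, so counts are also given for the 31 genes that pass without M-D+.

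Proteasome transcripts were most abundant in wild-type fish on doxycycline. Summed over the 51 genes they came to 661 and 884 CPM in the M+D+ libraries, 2254 and 2453 CPM in M-D+, 932 and 895 CPM in M+D-, and 1134 and 1059.7 CPM in M-D-. Both M-D+ libraries lay above all others, and both M+D+ libraries lay below all others. The mean sum in M-D+ was 2354 ± 141 CPM against 1097 ± 52.5 CPM in M-D- (SD, n = 2 each), a ratio of 2.15, and M+D+ at 772 ± 158 CPM stood at a ratio of 0.328 to M-D+ and 0.704 to M-D-. In bulk liver, fewer cells of a type and less RNA per cell cannot be told apart.

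The size of the difference depended on the scaling, and its direction between M+D+ and M-D+ did not. After TMM the sums were 942 and 1032 CPM in M+D+, 1316 and 1725 CPM in M-D+, 973 and 984 CPM in M+D-, and 1388 and 1103 CPM in M-D-. On that scale M+D+ stood at a ratio of 0.649 to M-D+, while M-D+ and M-D- overlapped, at a ratio of 1.22. The M+D+ sums also overlapped those of M+D- after TMM.

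**Figure D1:**
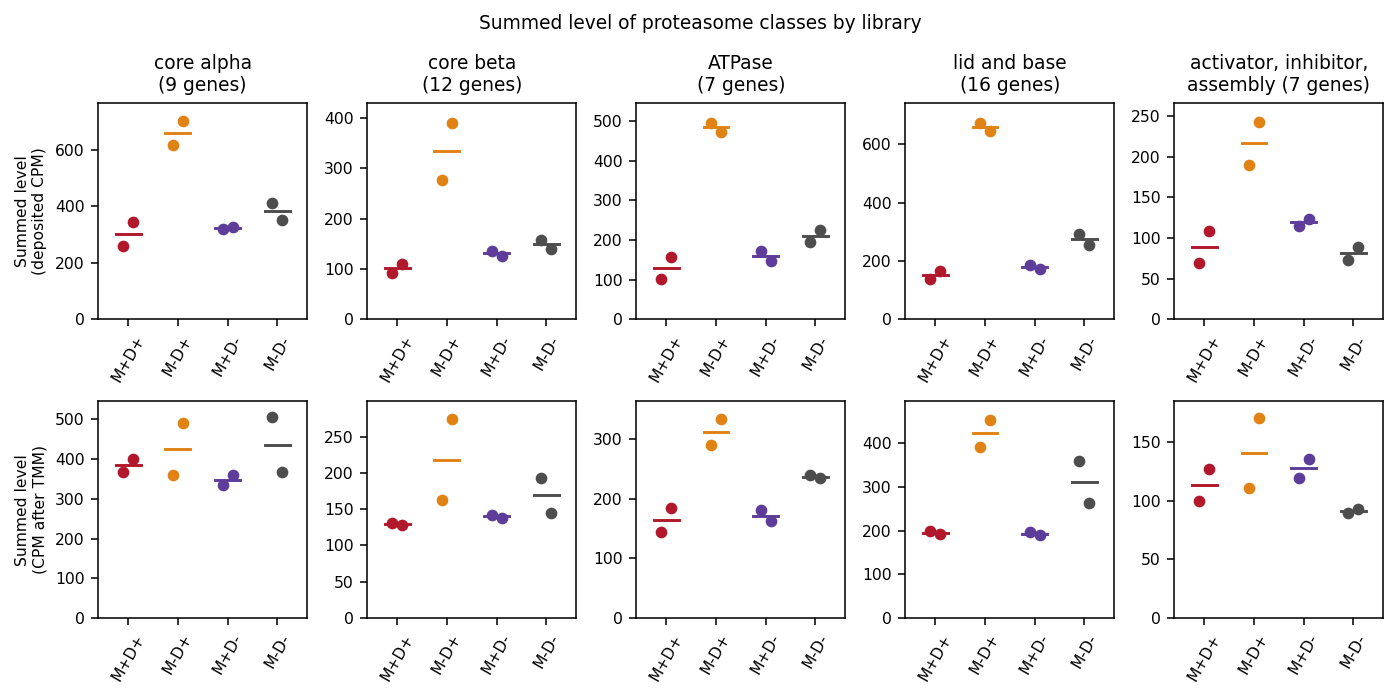
Summed level of each proteasome class (vertical axes, CPM; deposited values in the upper row, TMM-scaled values in the lower row) by group from M+D+ on the left to M-D- on the right, with 1 point per library and a bar at the mean of 2. The M-D+ points are the highest in every panel of the upper row, and in the lower row they remain highest for the ATPase genes (289 and 333 CPM) and the lid and base genes (393 and 455 CPM).

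Class by class, the gap was widest in the cap. The 16 lid and base genes summed to 139 and 165 CPM in M+D+, 673 and 647 CPM in M-D+, 188 and 172 CPM in M+D-, and 293 and 254 CPM in M-D-. The 7 ATPase genes summed to 101 and 157 CPM in M+D+, 495 and 473 CPM in M-D+, 173 and 147 CPM in M+D-, and 196 and 225 CPM in M-D-. In both classes the M-D+ libraries were highest, followed by M-D-, and every transgenic library was below every wild-type one. The 9 alpha genes, among which psma1 gave the most tags, summed to 258 and 343 CPM in M+D+, 618 and 700.4 CPM in M-D+, 320.1 and 327 CPM in M+D-, and 413 and 352 CPM in M-D-. The 12 beta genes summed to 92.2 and 110.0 CPM in M+D+, 278 and 390.3 CPM in M-D+, 136 and 125 CPM in M+D-, and 158 and 139 CPM in M-D-. The M+D+ to M-D+ ratio was 0.230 for lid and base, 0.267 for ATPases, 0.303 for beta, 0.413 for activators, inhibitor and assembly, and 0.456 for alpha genes. After TMM these ratios were 0.461, 0.527, 0.595, 0.804 and 0.902 in the same order.

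**Figure D2:**
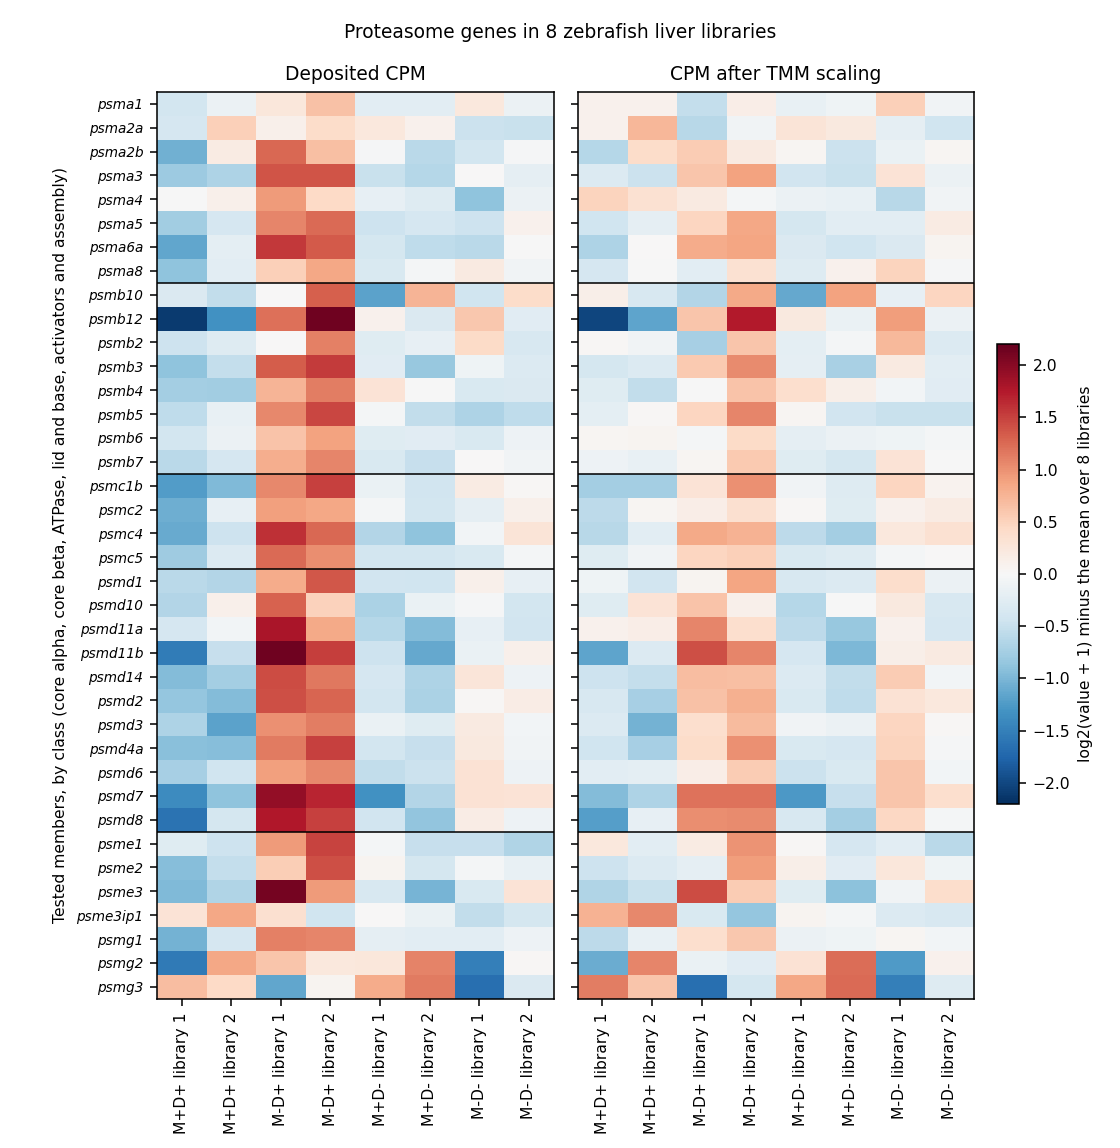
Each of the 38 tested genes (rows, by class) in the 8 libraries (columns), as log2(value + 1) minus the mean of the gene over the libraries, for deposited CPM on the left and TMM-scaled CPM on the right. Red marks libraries above the mean of the gene and blue those below it, and the M-D+ columns are the reddest on the left, where both lie above the other 6 libraries in 32 of 38 genes.

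The pattern was shared by most genes. On deposited CPM, both M-D+ libraries were above all 6 others in 32 of the 38 tested genes, where 42.2% of all tested rows showed this. Among the 31 genes that pass without M-D+ it was 25, against 39.2% of such rows. After TMM it was 15 of 38 against 11.5% of rows, and 12 of 31 against 9.3%. The exceptions on deposited CPM were psma2a, psmb2, psmb10, psme3ip1, psmg2 and psmg3. Both M+D+ libraries were the lowest of the 8 in 11 of 38 genes (26.9% of all rows) and, after TMM, in 7 of 38 (13.1% of all rows).

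Transgenic fish on doxycycline were compared with wild-type fish on doxycycline, which sets the transgene apart with the drug held the same. In limma with Benjamini-Hochberg adjustment over all 4577 rows, 29 of 38 genes fell and none rose in M+D+, where 41.7% of all rows fell and 2.49% rose. Among the 31 genes that pass without M-D+, 22 fell, against 39.8% of such rows. The median change was -1.68 on the log2(CPM + 1) scale for the 38 genes and -1.04 for all rows. After TMM, 11 genes fell and 1 rose, against 7.3% and 7.73% of all rows, and the medians were -0.72 and -0.12. The 1 gene that rose was psme3ip1, which matches the name rule but is not a subunit. Fitted on the rows that pass without M-D+ alone, 11 of the 31 genes fell after TMM, against 7.29% of those rows. On whole tags, edgeR called 11 lower and 1 higher (6.05% and 7.08% of all rows), and DESeq2 9 lower and 2 higher (6.66% and 8.74%). The TMM count was 0 without M+D+ library 1 and 3 to 7 without any 1 of the others.

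Of the 11 tested lid and base genes, 10 fell on deposited CPM (41.7% of all rows) and 6 after TMM (7.3% of all rows). Those 6 were psmd2, psmd4a, psmd7, psmd8, psmd11b and psmd14. psmd7, the partner of the deubiquitinase in the lid, had 3.44 and 5.24 CPM in M+D+, 42.8 and 35.8 CPM in M-D+, 3.59 and 6.41 CPM in M+D-, and 13.4 and 13.2 CPM in M-D-. The transgenic libraries lay together at the bottom, whether or not the fish had doxycycline. The change in M+D+ against M-D+ was -2.93 ± 0.35 (log2, SE; limma adjusted p = 0.00283), 7.63-fold lower, and -2.01 ± 0.34 after TMM (adjusted p = 0.0118).

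psmd14, the deubiquitinase itself, had 25.2 and 29.3 CPM in M+D+, 137 and 113 CPM in M-D+, 38.4 and 30.9 CPM in M+D-, and 60.4 and 46.0 CPM in M-D-. psmd2, a base scaffold that receives ubiquitin-loaded shuttle proteins, had 28.1 and 26.2 CPM in M+D+, 139 and 127 CPM in M-D+, 38.8 and 31.4 CPM in M+D-, and 52.3 and 57.9 CPM in M-D-. On deposited CPM, both genes had M-D+ highest, M-D- next, then M+D-, and M+D+ lowest, with no overlap between any of the 4 groups. After TMM, M+D+ overlapped M+D- for both genes. psmd14 fell by 2.16 (limma adjusted p = 0.0034) and psmd2 by 2.25 (adjusted p = 0.00283) on the log2 scale against M-D+, and by 1.16 and 1.26 after TMM (adjusted p = 0.0413 and 0.0275). psmd4a, a ubiquitin receptor, had 14.2 and 14.0 CPM in M+D+, 63.0 and 80.9 CPM in M-D+, 20.7 and 19.2 CPM in M+D-, and 32.3 and 26.2 CPM in M-D-. On deposited CPM psmd4a followed the same order, and fell by 2.26 (limma adjusted p = 0.00283).

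The lid subunit gene psmd11 has a pair of copies in zebrafish, and transcripts of such copies can share tags. psmd11b, chosen after its values were seen, had 1.72 and 4.54 CPM in M+D+, 33.9 and 21.8 CPM in M-D+, 4.78 and 2.65 CPM in M+D-, and 6.13 and 7.59 CPM in M-D-. It fell by 2.86 against M-D+ (limma adjusted p = 0.00461) and by 1.98 after TMM (adjusted p = 0.0195). psmd11a had 5.47 and 6.98 CPM in M+D+, 27.9 and 13.8 CPM in M-D+, 4.38 and 3.32 CPM in M+D-, and 6.36 and 5.20 CPM in M-D-. Its values in M+D+ lay within or above those of M-D-, and its fall of 1.53 against M-D+ (limma adjusted p = 0.0185) did not pass after TMM, where the change was -0.60 (adjusted p = 0.299). The lid or base genes psmd1, psmd3 (which passed the minimum of 5 CPM only with the help of M-D+), psmd6 and psmd8 fell by 1.56 to 2.64. Among them psmd8, a lid subunit that fell by 1.72 after TMM as well (limma adjusted p = 0.0292), had 3.13 and 8.73 CPM in M+D+, 42.2 and 35.3 CPM in M-D+, 8.56 and 5.97 CPM in M+D-, and 13.4 and 10.8 CPM in M-D-. Its transgenic libraries overlapped and lay below M-D-, as those of psmd7 did. psmd6, another lid subunit, had 27.2 and 33.5 CPM in M+D+, 86.2 and 96.3 CPM in M-D+, 31.1 and 32.7 CPM in M+D-, and 57.2 and 42.1 CPM in M-D-. psmd1, a base scaffold, had 24.5 and 23.7 CPM in M+D+, 67.2 and 98.3 CPM in M-D+, 27.9 and 27.6 CPM in M+D-, and 40.7 and 33.0 CPM in M-D-. Both genes put M-D+ highest and M-D- next. psmd10, an assembly chaperone of the base, had a change of -1.18 that did not pass (limma adjusted p = 0.0773).

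All 4 tested ATPase genes fell in M+D+ against M-D+ on deposited CPM (41.7% of all rows), and psmc1b and psmc4 also after TMM (7.3% of all rows). psmc1b had 19.2 and 23.4 CPM in M+D+, 98.1 and 133 CPM in M-D+, 42.0 and 34.5 CPM in M+D-, and 52.9 and 47.3 CPM in M-D-. It was lowest in both M+D+ libraries on either scale, with a change of -2.38 ± 0.30 against M-D+ (limma adjusted p = 0.00283) and -1.39 ± 0.33 after TMM (adjusted p = 0.031). psmc4 had 21.9 and 35.3 CPM in M+D+, 149 and 118 CPM in M-D+, 30.7 and 25.9 CPM in M+D-, and 46.8 and 59.0 CPM in M-D-. For this gene the transgenic groups overlapped, and both lay below M-D-. psmc2 had 30.3 and 57.3 CPM in M+D+, 122 and 117 CPM in M-D+, 62.7 and 48.9 CPM in M+D-, and 56.6 and 70.3 CPM in M-D-. psmc5 had 27.8 and 39.1 CPM in M+D+, 115 and 99.2 CPM in M-D+, 36.3 and 36.0 CPM in M+D-, and 38.2 and 46.6 CPM in M-D-. For both genes M-D+ alone stood apart on deposited CPM, and M+D+ overlapped M+D- and M-D-. After TMM all transgenic libraries lay below all wild-type ones for both genes, as 8.28% of all rows did. On that scale M-D+ overlapped M-D- for psmc2.

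**Figure D3:**
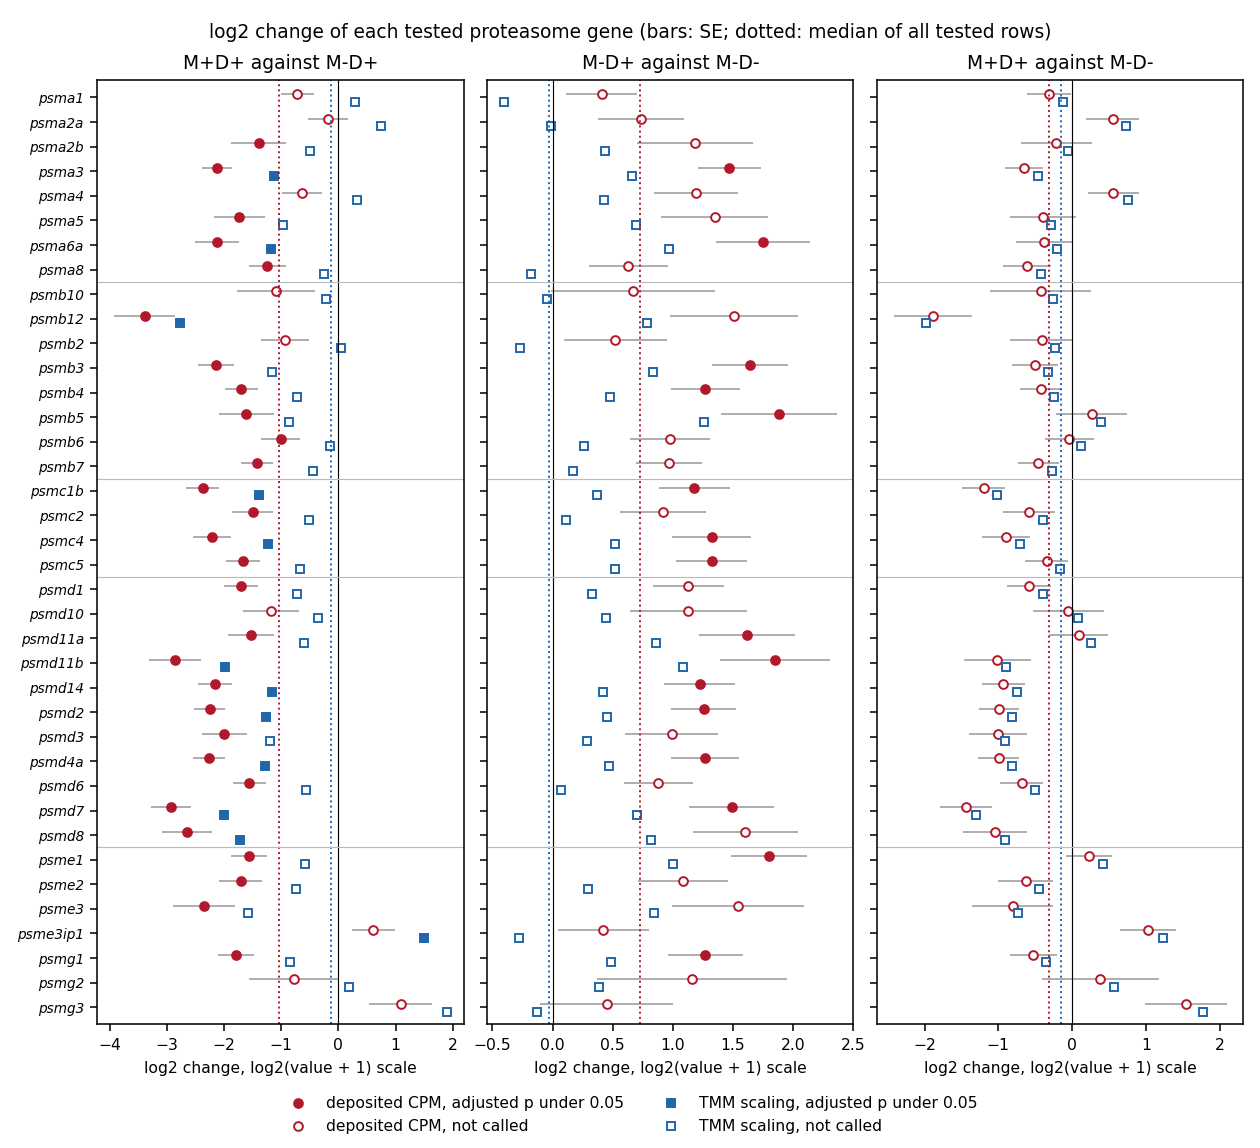
Change of each tested gene (rows, by class) as limma log2 change on the log2(value + 1) scale, with grey bars for the SE on deposited CPM, in the contrasts named above the 3 panels (left, M+D+ against M-D+). Filled marks passed an adjusted p of 0.05 and dotted lines give the median of all tested rows, at -1.04, 0.72 and -0.31 for deposited CPM and -0.12, -0.03 and -0.14 after TMM.

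The alpha ring was less uniform. Of 8 tested genes 5 fell against M-D+ (41.7% of all rows), and psma3 and psma6a also after TMM (7.3% of all rows). psma3 had 30.6 and 33.2 CPM in M+D+, 141 and 142 CPM in M-D+, 38.2 and 34.7 CPM in M+D-, and 54.5 and 47.1 CPM in M-D-. Its groups did not overlap on deposited CPM, whereas M+D+ overlapped M+D- after TMM. Against M-D+ psma3 fell by 2.12 (limma adjusted p = 0.00283), or 1.13 after TMM (adjusted p = 0.0405). psma1, the alpha gene with the most tags, had 144 and 175 CPM in M+D+, 228 and 300.4 CPM in M-D+, 163 and 163 CPM in M+D-, and 224 and 174 CPM in M-D-. Its change of -0.72 against M-D+ did not pass (limma adjusted p = 0.0753), and its TMM value had the opposite sign, at 0.29 (adjusted p = 0.619).

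psma6a, another alpha subunit, had 5.78 and 11.9 CPM in M+D+, 42.8 and 36.9 CPM in M-D+, 10.4 and 9.06 CPM in M+D-, and 8.86 and 13.9 CPM in M-D-, so that M-D+ alone stood apart. psma8 had 47.8 and 75.8 CPM in M+D+, 129 and 161 CPM in M-D+, 69.9 and 86.0 CPM in M+D-, and 102 and 83.9 CPM in M-D-. psma5 had at most 2.82 CPM outside M-D+ and 6.54 and 7.48 CPM in M-D+. It passed the minimum of 5 CPM only with the help of M-D+, so its fall is not independent of its high M-D+ values. psma2a, whose copy psma2b can share tags with it, had 9.53 and 18.5 CPM in M+D+, 13.7 and 17.0 CPM in M-D+, 14.9 and 13.5 CPM in M+D-, and 8.86 and 8.67 CPM in M-D-. For psma2a the M+D+ and M-D+ values overlapped, with a change of -0.18 (limma adjusted p = 0.692). psma4, a structural alpha subunit, had 15.0 and 16.4 CPM in M+D+, 29.7 and 20.8 CPM in M-D+, 13.2 and 12.2 CPM in M+D-, and 7.72 and 13.7 CPM in M-D-. On deposited CPM its M+D+ values lay above those of both groups without doxycycline, which no other alpha gene showed, and its change of -0.63 against M-D+ did not pass.

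Doxycycline in wild-type fish was addressed by M-D+ against M-D-. All 38 tested genes had a positive change on deposited CPM, and 16 rose and none fell in limma, where 9.22% of all rows rose and 0.568% fell. Among the 31 genes that pass without M-D+ it was 13, against 7.42% of such rows. The median change was 1.21 for the 38 genes and 0.72 for all rows. After TMM none passed, and 0 rows of 4577 were called higher and 0.0218% of them lower. The median after TMM was 0.44 against -0.03 for all rows. At an unadjusted limma p under 0.05, 6 of the 38 genes were higher, where 17.6% of all rows reached that p in either direction. edgeR and DESeq2 also called none of the 38, with 7 and 3 higher at an unadjusted p under 0.05, and DESeq2 gave no adjusted p for 20 of them. These unadjusted counts of edgeR and DESeq2 are given without the share of all rows, so they cannot be set against the background. Of all rows, edgeR called 0% in either direction, and DESeq2 called 0.677% higher and 2.97% lower. The 16 calls had adjusted p-values of 0.0371 to 0.0493 and came to 0 when any 1 of the M+D- or M-D- libraries was left out, and to 1 without M-D+ library 1.

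The 16 genes that rose came from every class. They were psma3 and psma6a of the alpha ring, psmb3, psmb4 and psmb5 of the beta ring, psmc1b, psmc4 and psmc5 of the ATPases, psmd2, psmd4a, psmd7, psmd11a, psmd11b and psmd14 of the lid and base, and psme1 and psmg1. Of these, psmb5 passed the minimum of 5 CPM only with the help of M-D+. psme1 encodes a subunit of an activator that interferon induces in mammals, and had 68.4 and 100.1 CPM in M-D+ against 24.3 and 21.9 CPM in M-D-. It rose by 1.80 ± 0.32 (log2, SE; limma adjusted p = 0.0371), 3.48-fold higher. psme1 had 29.1 and 25.5 CPM in M+D+ and 34.3 and 24.5 CPM in M+D-, which overlapped each other and lay just above M-D-. psmb3, a structural beta subunit, had 97.5 and 113 CPM in M-D+ against 35.4 and 30.8 CPM in M-D-, and rose by 1.64 (limma adjusted p = 0.0384). psmb3 had 20.2 and 26.2 CPM in M+D+ and 31.7 and 20.8 CPM in M+D-.

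Tumor livers were next set against the fish that had no doxycycline. None of the 38 genes passed in M+D+ against M-D- in limma on deposited CPM or after TMM, or in edgeR or DESeq2, where 1.35% of all rows rose and 3.87% fell on deposited CPM, and 2.64% and 2.73% after TMM. edgeR called 2.49% of all rows higher and 1.66% lower, and DESeq2 4.48% and 3.32%. At an unadjusted p under 0.05, 11 genes were lower and 2 higher on deposited CPM, and 7 lower and 3 higher after TMM. Of all rows, 26.8% reached that p in either direction on deposited CPM and 24.8% after TMM. The median change was -0.48 for the 38 genes and -0.31 for all rows. psmd7 had the lowest adjusted p, 0.0563, with a change of -1.44 ± 0.35, and psmc1b followed with -1.20 ± 0.30 (limma adjusted p = 0.0577). Outside the lid, base and ATPases the changes lay on both sides of 0: psma4 had 0.56 and psma2a 0.55, whereas psma3 had -0.65, and none of the 3 passed. A stricter minimum of 20 CPM called 4 genes here. That count is given without the share of all rows at that minimum, so it cannot be set against the background.

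Doxycycline within transgenic fish was addressed by M+D+ against M+D-. In these fish doxycycline also switches on Myc, and the M+D+ libraries are called tumors. The drug, Myc and the tumor state cannot be told apart in this comparison. None of the 38 genes was called by limma on either scale, by edgeR or by DESeq2, where 0.393% of all rows rose and 2.34% fell on deposited CPM, and 0.503% and 1.2% after TMM. edgeR called 0.393% of all rows higher and 0.459% lower, and DESeq2 2.08% and 2.53%. At an unadjusted p under 0.05, 3 were lower on deposited CPM (psmb4, psmb12 and psmc1b), and 1 was lower and 1 higher after TMM. Of all rows, 22.0% reached that p in either direction on deposited CPM and 19.9% after TMM. The median change was -0.17 for the 38 genes and -0.30 for all rows. In M+D- against M-D-, limma called 0 of 38 genes and 0% of all rows in either direction, with 3 genes lower and 1 higher at an unadjusted p under 0.05. These were psmd7, psmc4 and psmd2 on the lower side and psmg3 on the higher side, where 9.15% of all rows reached that p in either direction. After TMM and in edgeR none of the 38 passed either, nor in DESeq2, where 0.35% of all rows rose and 0.481% fell.

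Tumor libraries against the mean of the 3 other groups, the comparison that pools all controls, gave 16 genes lower and none higher, where 20.7% of all rows fell and 2.32% rose. Of the 16, 9 were lid and base genes, 3 beta, 2 ATPase, 1 alpha (psma3) and 1 assembly (psmg1). Among the 31 genes that pass without M-D+ it was 15, against 22.9% of such rows. The count was 0 once the average held only the groups without doxycycline. After TMM psmb12 and psmd7 fell and psme3ip1 rose, where 5.81% of rows fell and 5.27% rose. Of these, psmb12 reached 5 CPM in a pair of libraries only with the help of M-D+. Leaving out M+D+ library 1 also gave 0 genes on either scale.

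The response to doxycycline was set against genotype through the interaction term, (M+D+ minus M-D+) minus (M+D- minus M-D-). It was negative and passed for 9 genes (psma3, psmb3, psmb4, psmb12, psmc1b, psmd2, psmd4a, psme1 and psmg1), where 7.97% of all rows were negative and passed and 0.262% were positive and passed. Among the 31 genes that pass without M-D+ it was 8, against 9.18% of such rows. psmb4, a structural beta subunit, had 17.2 and 17.1 CPM in M+D+, 50.5 and 66.1 CPM in M-D+, 36.7 and 29.4 CPM in M+D-, and 23.2 and 23.6 CPM in M-D-. It differed from the cap genes in that M+D- lay above M-D-. After TMM the interaction passed for none of the 38 genes (limma, 1 higher and 2 lower at an unadjusted p under 0.05), where 0.109% of all rows were positive and passed. Of all rows, 15.5% reached that unadjusted p in either direction. The interaction passed for none in edgeR (1 higher and 2 lower at an unadjusted p under 0.05) or DESeq2 (1 lower). The unadjusted counts of edgeR and DESeq2 are given without the share of all rows. Of all rows, edgeR called 0% in either direction, and DESeq2 2.49% positive and 1.03% negative.

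Many cap genes were lower in the transgenic libraries than in the wild-type ones, with and without doxycycline. In 14 of 38 genes all 4 transgenic libraries were below all 4 wild-type libraries on deposited CPM, where 13.7% of all rows were. After TMM it was 16 of 38, where 8.28% of all rows were, and among the genes that pass without M-D+ it was 12 and 14 of 31, where 13.5% and 7.65% of rows were. Both scales named psma3, psmb7, psmc1b, psmc4, psmd2, psmd3, psmd4a, psmd6, psmd7, psmd8, psmd11b, psmd14 and psme3. Of these 13 genes, 10 belong to the ATPases or to the lid and base, classes that held 4 and 11 of the 38 tested genes. psmd3 and psme3 passed the minimum of 5 CPM only with the help of M-D+. The split between genotypes was noticed in the values and was not tested with a fit of its own. Its part without doxycycline, M+D- against M-D-, passed for 0 of the 38 genes in limma. At an unadjusted limma p under 0.05 only 3 genes were lower there, where 9.15% of all rows reached that p in either direction. psmg3, an assembly chaperone, was the 1 gene with all transgenic libraries above all wild-type ones on deposited CPM (1.42% of all rows), and after TMM psma2a and psme3ip1 joined it (5.22% of all rows).

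The share of tags from the cap among all core and cap tags does not depend on how libraries are scaled. It was 40.6% (95% exact interval 39.1 to 42.2) and 41.6% (39.5 to 43.6) in M+D+, 56.6% (54.9 to 58.3) and 50.7% (49.7 to 51.7) in M-D+, 44.1% (42.6 to 45.7) and 41.4% (39.7 to 43.0) in M+D-, and 46.1% (44.7 to 47.6) and 49.3% (47.9 to 50.8) in M-D-. Both M-D+ libraries had the highest shares, and all 4 transgenic libraries lay below all 4 wild-type ones. The intervals cover counting error only, within which M-D+ library 2 overlaps M-D- library 2, and M+D- library 1 overlaps M-D- library 1. Without psma1, the cap share was 53.7% in each M+D+ library, 63.6% and 58.6% of tags in M-D+, 55.1% and 52.5% of tags in M+D-, and 58.5% and 60.1% of tags in M-D-. The M-D+ and M-D- shares then overlapped while the genotypes did not.

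The catalytic beta subunits come as constitutive and inducible forms. Of the constitutive ones, psmb7 had 22.8 and 26.9 CPM in M+D+, 61.8 and 75.4 CPM in M-D+, 27.7 and 24.3 CPM in M+D-, and 35.4 and 33.4 CPM in M-D-. psmb6 had 3.91 and 4.89 CPM in M+D+, 8.92 and 10.9 CPM in M-D+, 4.38 and 4.42 CPM in M+D-, and 4.09 and 4.99 CPM in M-D-. psmb5 had 1.09 and 1.75 CPM in M+D+, 5.35 and 7.48 CPM in M-D+, 1.99 and 1.11 CPM in M+D-, and 0.91 and 1.08 CPM in M-D-. All 3 were highest in M-D+. For psmb6 the other groups overlapped, and for psmb5 M+D+ overlapped M+D- while M-D- lay just below both. Each fell in M+D+ against M-D+ on deposited CPM, by 1.43, 1.01 and 1.61 for psmb7, psmb6 and psmb5 (limma adjusted p = 0.00721, 0.0402 and 0.029), and none of them did after TMM. psmb5 and psmb6 reached 5 CPM in a pair of libraries only with the help of M-D+, so their p-values are not independent of their high M-D+ values.

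The inducible genes and their relatives in the zebrafish histocompatibility region were scarce. psmb12 had 0 and 0.70 CPM in M+D+, 8.92 and 17.9 CPM in M-D+, 3.59 and 2.43 CPM in M+D-, and 5.45 and 2.60 CPM in M-D-. Its fall against M-D+ passed on deposited CPM (-3.39 ± 0.53, limma adjusted p = 0.00429) and after TMM (-2.77 ± 0.58, adjusted p = 0.0214), and it was the 1 beta gene that also fell against the pooled controls on both scales. psmb12 reached 5 CPM in a pair of libraries only with the help of M-D+, so these p-values are not independent of its high M-D+ values. The M+D+ libraries held 2 psmb12 tags in all, against 94 tags in M-D+, 29 tags in M+D- and 36 tags in M-D-. Per tag sequenced, the pooled M+D+ level stood at a ratio of 0.0140 to M-D+ (95% exact interval 0.00167 to 0.0520, counting error only) and 0.0541 to M-D- (0.00631 to 0.210).

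psmb13a had no tag in either M+D+ library, which allows up to 0.469 and 1.05 CPM, against 1.78 and 12.7 CPM in M-D+, 2.79 and 1.55 CPM in M+D-, and 4.09 and 4.77 CPM in M-D-. It was too low to be tested. psmb8a had 0 and 1.05 CPM in M+D+, 0.59 and 1.81 CPM in M-D+, 0.60 and 0 CPM in M+D-, and 0.45 and 0 CPM in M-D-. psmb9a had 0 and 1.75 CPM in M+D+, 4.76 and 0.68 CPM in M-D+, 0 and 2.65 CPM in M+D-, and 3.63 and 5.20 CPM in M-D-. At this depth psmb8a did not separate the groups. For psmb9a both transgenic groups lay below M-D-, while M-D+ overlapped every other group. The structural beta subunit psmb2 had 21.3 and 24.1 CPM in M+D+, 29.7 and 65.2 CPM in M-D+, 24.3 and 26.1 CPM in M+D-, and 40.2 and 23.0 CPM in M-D-. Its M-D+ and M-D- values overlapped.

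psmb10, the remaining inducible gene, did not share the M-D+ pattern. It had 5.47 and 4.54 CPM in M+D+, 7.13 and 19.0 CPM in M-D+, 2.59 and 12.6 CPM in M+D-, and 5.0 and 9.76 CPM in M-D-, with replicates of 1 group as far apart as the groups. Its change against M-D+ was -1.09 ± 0.68 (limma adjusted p = 0.215). Together the 5 inducible genes took 16.4% (95% exact interval 11.7 to 22.1) and 19.3% (12.7 to 27.6) of catalytic tags in M+D+, 23.4% (17.2 to 30.5) and 35.7% (32.0 to 39.6) in M-D+, 21.9% (16.6 to 28.0) and 39.2% (32.7 to 45.9) in M+D-, and 31.5% (25.9 to 37.6) and 36.1% (30.6 to 42.0) in M-D-. The M+D+ shares were the lowest of the 8, and their intervals overlapped those of library 1 of each of M-D+ and M+D-, and for M+D+ library 2 also that of M-D- library 1. Much of this share was psmb10. Its part of the inducible tags was 35 of 35 and 13 of 23 in M+D+, and 12 of 39 and 84 of 230 in M-D+. In M+D- it was 13 of 48 and 57 of 87, and in M-D- 22 of 82 and 45 of 103.

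**Figure D4:**
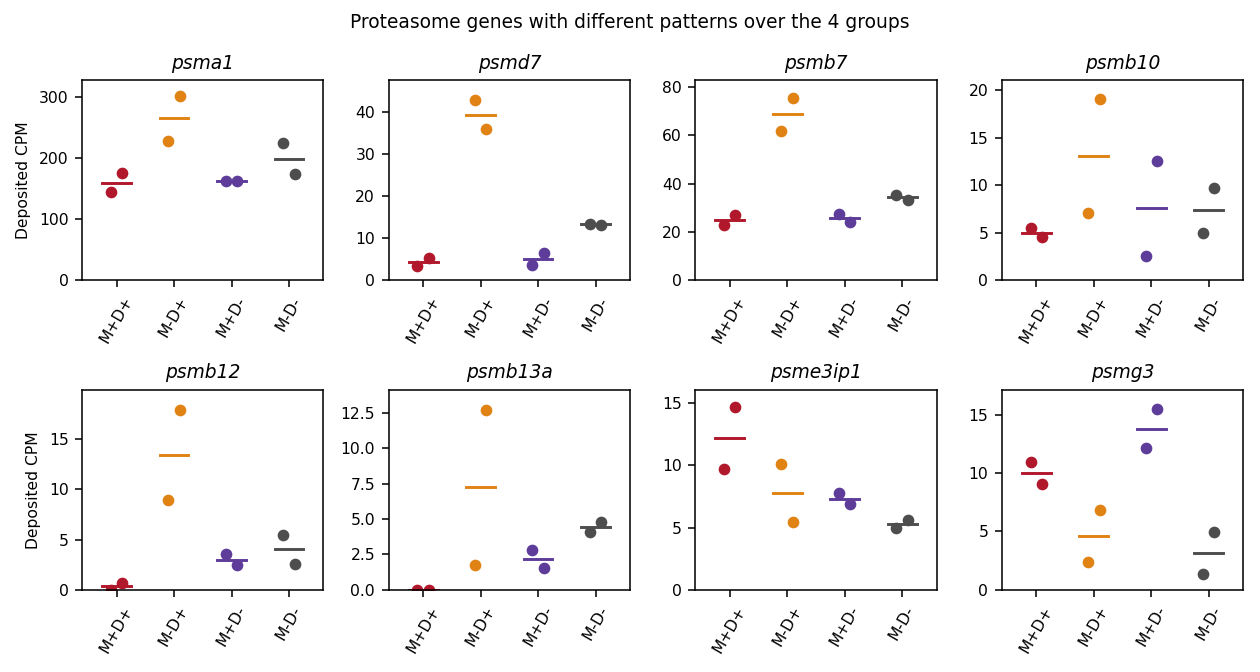
Deposited CPM (vertical axes) of 8 genes chosen to show different patterns over the groups, with 1 point per library and a bar at the mean of 2. In psma1, psmd7 and psmb7 both M-D+ points are highest, in psmb12 and psmb13a the M+D+ points lie at or near 0, and psme3ip1 and psmg3 are not highest in M-D+.

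Among activators, inhibitor and assembly factors, psme1, psme2, psme3 and psmg1 fell in M+D+ against M-D+ on deposited CPM (41.7% of all rows), and none of the 4 did after TMM. psme2, the partner of psme1 in the activator ring, had 11.3 and 15.4 CPM in M+D+, 33.3 and 61.6 CPM in M-D+, 23.5 and 17.0 CPM in M+D-, and 21.8 and 19.95 CPM in M-D-. psme3, which forms a nuclear activator, had 0.94 and 1.40 CPM in M+D+, 15.5 and 6.34 CPM in M-D+, 1.99 and 0.88 CPM in M+D-, and 2.04 and 3.69 CPM in M-D-. Both genes were highest in M-D+, and psme3 passed the minimum of 5 CPM only with the help of M-D+. psmg1, an assembly chaperone of the alpha ring, had 6.88 and 11.5 CPM in M+D+, 33.9 and 33.1 CPM in M-D+, 13.2 and 12.8 CPM in M+D-, and 12.7 and 13.9 CPM in M-D-, with M+D+ below all others. psmf1, an inhibitor, had 1.08 to 7.02 CPM and was not tested.

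A few genes of this class ran against the rest. psme3ip1 had 9.69 and 14.7 CPM in M+D+, 10.1 and 5.44 CPM in M-D+, 7.77 and 6.85 CPM in M+D-, and 5.0 and 5.64 CPM in M-D-. It rose in M+D+ against M-D+ only after TMM (1.51 ± 0.32, limma adjusted p = 0.0219), and edgeR and DESeq2 also called it there (adjusted p = 0.0324 and 0.0299), while on deposited CPM its change was 0.61 (adjusted p = 0.209). psmg2, the partner of psmg1, ranged from 7.19 and 42.6 CPM within M+D+ to 7.50 and 23.6 CPM within M-D-, so that replicates differed more than groups. psmg3, named after its values were seen, had 10.9 and 9.08 CPM in M+D+, 2.38 and 6.80 CPM in M-D+, 12.2 and 15.5 CPM in M+D-, and 1.36 and 4.99 CPM in M-D-. Transgenic libraries were higher than wild-type ones throughout, and its change in M+D+ against M-D+ was 1.1 ± 0.55 (limma adjusted p = 0.132), or 1.90 after TMM (adjusted p = 0.0519), with a call in DESeq2 (adjusted p = 0.0328).

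The wider ubiquitin pathway was described through lists of genes outside the name rule. In M+D+ against M-D+ on deposited CPM, 6 of 15 tested proteasome-associated factors fell, 6 of 9 genes of ubiquitin, its relatives and their activating enzymes, 14 of 19 ubiquitin-conjugating enzymes, 3 of 7 COP9 signalosome genes, and 11 of 15 genes of the segregase vcp and of retrotranslocation from the endoplasmic reticulum, where 41.7% of all rows fell. After TMM the counts were 1, 2, 2, 0 and 5 in the same order, where 7.3% of all rows fell. In the opposite direction rps27a and ubxn7 rose on deposited CPM (2.49% of all rows), and after TMM rad23ab, rps27.1, rps27a, sumo2b and ubxn7 rose (7.73% of all rows). The list of 9 ubiquitin genes included rps27.1, which encodes a ribosomal protein and no ubiquitin. Its rise is therefore not a result about the ubiquitin pathway. In M-D+ against M-D-, 3, 2, 4, 2 and 3 of these genes rose on deposited CPM (9.22% of all rows) and none after TMM. Among autophagy genes 5 of 12 fell in M+D+ against M-D+ on deposited CPM and none after TMM.

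**Figure D5:**
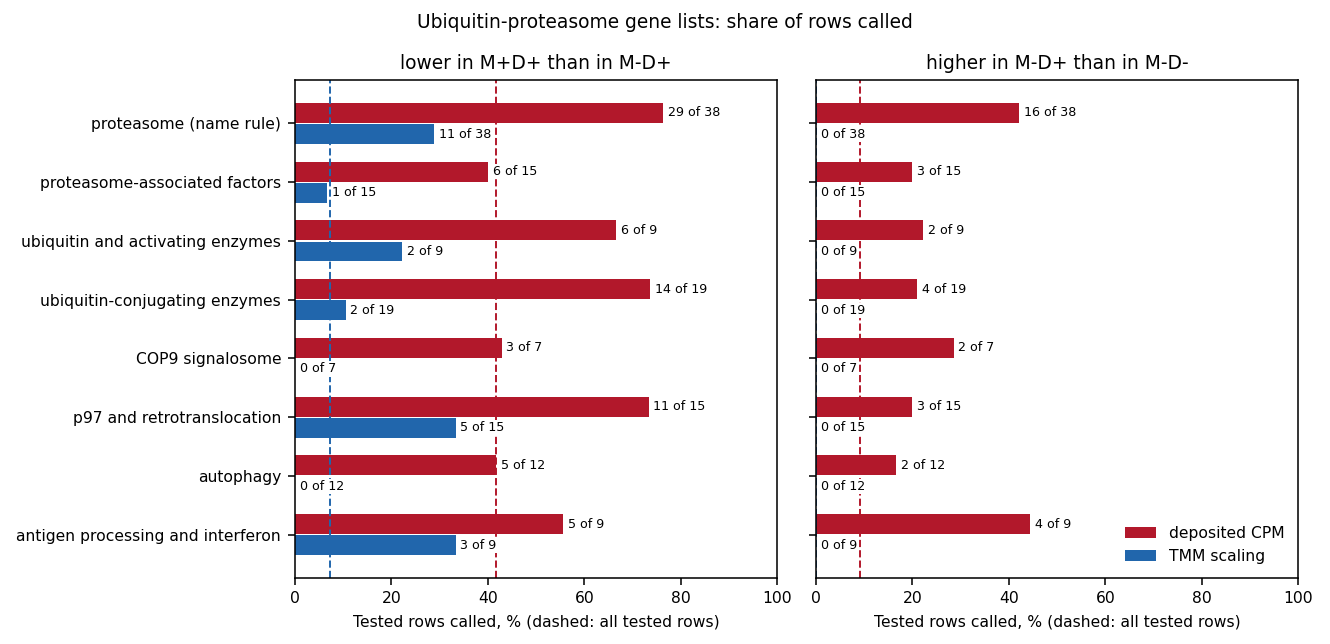
Share of tested rows called (horizontal axes, %) for the proteasome genes and 7 other gene lists, lower in M+D+ than in M-D+ on the left and higher in M-D+ than in M-D- on the right, on deposited CPM (red) and after TMM (blue). Dashed lines give all tested rows, and the proteasome bars on the left stand at 29 and 11 of 38 genes.

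pomp, the maturation factor of the core, had 35.6 and 55.5 CPM in M+D+, 212 and 172 CPM in M-D+, 56.4 and 47.7 CPM in M+D-, and 75.2 and 74.4 CPM in M-D-. It fell by 2.08 against M-D+ (limma adjusted p = 0.00392) and by 1.08 after TMM (adjusted p = 0.0411). uba1, the main ubiquitin-activating enzyme, had 36.7 and 39.5 CPM in M+D+, 221 and 141 CPM in M-D+, 52.0 and 44.4 CPM in M+D-, and 52.0 and 61.6 CPM in M-D-. Both genes were highest in M-D+, as most proteasome genes were. ube2g1a, a ubiquitin-conjugating enzyme, had 11.6 and 10.8 CPM in M+D+, 67.8 and 73.6 CPM in M-D+, 22.3 and 16.6 CPM in M+D-, and 31.6 and 29.9 CPM in M-D-. On deposited CPM it followed the group order of psmd2.

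vcp, an ATPase that extracts ubiquitin-tagged proteins from membranes and complexes, had 2.19 and 4.19 CPM in M+D+, 57.1 and 35.8 CPM in M-D+, 8.56 and 5.30 CPM in M+D-, and 27.0 and 21.5 CPM in M-D-. The transgenic and wild-type libraries did not overlap, and vcp fell against M-D+ on deposited CPM (-3.51, limma adjusted p = 0.00283) and after TMM (-2.60, adjusted p = 0.00799). It also fell against M-D- on either scale (adjusted p = 0.0197 and 0.0145), a comparison in which no proteasome gene passed. ubxn7, an adaptor of vcp, moved the other way, with 21.6 and 15.7 CPM in M+D+, 4.76 and 2.27 CPM in M-D+, 3.59 and 3.54 CPM in M+D-, and 2.95 and 1.52 CPM in M-D-. It rose against each of M-D+ and M-D- on both scales. ubxn7 reached 5 CPM only in the M+D+ libraries, so these calls are not independent of its high M+D+ values. derl1 and edem1, which act in retrotranslocation, fell against M-D+ by 2.41 and 2.66 (limma adjusted p = 0.0033 and 0.00304) and by 1.42 and 1.72 after TMM (adjusted p = 0.0282 and 0.0141).

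Of 9 tested genes of antigen processing and interferon response, 5 fell in M+D+ against M-D+ on deposited CPM (41.7% of all rows) and 3 after TMM (b2m, calr3b and rsad2; 7.3% of all rows). b2m, the light chain of class I histocompatibility molecules, had 66.6 and 70.2 CPM in M+D+, 375 and 376 CPM in M-D+, 155 and 123 CPM in M+D-, and 82.9 and 133 CPM in M-D-. rsad2, an antiviral gene that interferon induces, had 0.16 and 0 CPM in M+D+, 7.13 and 10.9 CPM in M-D+, 0.80 and 1.33 CPM in M+D-, and 1.59 and 1.30 CPM in M-D-. Both were highest in M-D+ and lowest in M+D+, and in M-D+ against M-D- both rose on deposited CPM (limma adjusted p = 0.0371 for b2m and 0.049 for rsad2) and neither after TMM. calr3b and rsad2 reached 5 CPM in a pair of libraries only with the help of M-D+. Their p-values and calls are therefore not independent of their high M-D+ values.

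Markers of liver cell types moved with some of these groups. Hepatocyte markers (10 of 14 listed, none at 0) summed to 153036 to 203252 CPM in M+D+, 114241 to 257989 CPM in M-D+, 206106 to 216981 CPM in M+D-, and 199990 to 201498 CPM in M-D-. Most of these sums was fabp10a, with 187914 and 129776 CPM in M+D+. ahsg2, ambp, apobb.1, fgb and fgg were lower in both M+D+ libraries than in all others, as 26.9% of all tested rows were. ahsg2 had 258 and 486 CPM in M+D+ and 1720 to 3787 CPM elsewhere. fabp10a, apoa2, cp, rbp4 and serpina1 overlapped between M+D+ and the rest. Leukocyte markers (8 of 14 listed, none at 0 in both M+D+ libraries) summed to 249 to 263 CPM in M+D+, 305 to 745 CPM in M-D+, 293 to 316 CPM in M+D-, and 199 to 232 CPM in M-D-. Stellate and endothelial markers (9 of 10 listed, 3 at 0 in both M+D+ libraries) summed to 26.9 to 52.0 CPM in M+D+, 70.7 to 389 CPM in M-D+, 61.8 to 74.3 CPM in M+D-, and 44.9 to 48.6 CPM in M-D-. In each of these 3 lists the higher M-D+ value was that of library 2, and the proteasome sums of libraries 1 and 2 were 2254 and 2453 CPM, or 1316 and 1725 CPM after TMM. Exocrine pancreas markers (14 of 17 listed, 1 at 0 in both M+D+ libraries) were lower in M+D+, at 672 to 1056 CPM, than in M-D+ (1394 to 2899 CPM), M+D- (1263 to 2289 CPM) or M-D- (1969 to 4070.5 CPM). The sum of erythrocyte markers (7 of 10 listed, none at 0 in both M+D+ libraries) was also lower in M+D+, at 139.5 to 209.8 CPM, than in M-D+ (216 to 355 CPM), M+D- (387 to 446 CPM) or M-D- (257 to 279 CPM). Most of that sum was hbba1, with 104 and 154 CPM in M+D+. In the opposite direction, alas2 had 24.5 and 26.5 CPM in M+D+ against 7.50 to 14.9 CPM in the other libraries. cahz likewise had 7.81 and 11.2 CPM against 2.82 to 6.19 CPM, so the sum does not speak for the whole list. Biliary markers (5 of 6 listed) summed to 1817 to 2745 CPM in M+D+, 1676 to 5357 CPM in M-D+, 2271 to 3198 CPM in M+D-, and 2079 to 2432 CPM in M-D-, and the groups overlapped. Intestine markers (2 of 6 listed) stayed at or below 27.3 CPM and ovary and egg markers (8 of 10 listed, 2 at 0 in both M+D+ libraries) at or below 104.5 CPM in every library. The part of these cell types in the results was not tested.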

How the data were processed

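The authors deposited 1 table per library with a value per RefSeq transcript. Their headers give no unit: the deposited values are taken as CPM, tags per transcript divided by the library's tags by the authors, since they add up to the same total in every library within rounding. Total RNA had been taken with TRIzol and sequenced by a contractor, per the labels' protocols. No aligner or genome build is given in the sources used here, and no coordinates or sequences are printed. Within each library the values were whole multiples of 1 tag (100% of low values, 20 tags or fewer, and 99.8% or more of the values of any size fell within 0.1 tag of a whole number), so that tag counts could be recovered for edgeR and DESeq2. On these, edgeR called 324 rows higher and 277 lower in M+D+ than in M-D+.

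Symbols came from RefSeq accessions in a table of assembly GRCz12tu, used for names only (10410 of 15600 rows; 122 rows had no RefSeq accession). Rows with at least 5 CPM in at least 2 of 8 libraries were tested. Groups were compared mainly with limma 3.58.1 (R 4.3.3) on log2(CPM + 1), with 1 mean per group, a trended prior and Benjamini-Hochberg adjustment over all 4577 rows at a threshold of 0.05. A fold change on this scale understates the change of low genes. The alternatives were TMM scaling, edgeR 4.0.16 (quasi-likelihood), DESeq2 1.42.0, other pseudocounts and filters, a replicate block and each library left out. The fits were tested on simulated data first. Values in every library are given for the genes of each class with the smallest p in M+D+ against the pooled controls, the highest change and the highest level, up to 4 of the smallest p in the other comparisons, and all catalytic beta genes; of the other lists, up to 3 in each direction. Values of psma4, psmb2, psmd1, psmd6, psmd8, psmd11b, psmg2 and psmg3 are given outside this rule. The genes and lists were chosen with earlier results of these data known. Copies such as psma2a and psma2b, psma6a and psma6b, psmc1a and psmc1b, psmd4a and psmd4b, or psmd11a and psmd11b may share tags. Intervals of shares are exact binomial and cover counting error only.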

Additional observations from a re-analysis of the deposited data

Results flagged for a closer look

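The interaction of genotype and doxycycline passed for 9 proteasome genes on deposited CPM, which means that M+D+ differed from M-D+ by another amount than M+D- differed from M-D-. Its value on the log2(CPM + 1) scale was -2.17 for psmb4 (limma adjusted p = 0.0412), -1.99 for psmc1b (0.0428), -1.65 for psma3 (0.0455), -1.74 for psmd4a (0.0470), -1.61 for psmd2 (0.0472), -1.89 for psme1 (0.0472), -3.11 for psmb12 (0.0472), -1.79 for psmb3 (0.0486) and -1.76 for psmg1 (0.0496). The median of all 4577 rows was -1.07. After TMM the values of the 9 genes ran from -2.42 (psmb12) to -0.54 (psmd2), all of the same sign, with adjusted p-values of 0.234 to 0.563. Groups of 2 libraries are too small to single out 1 library as far from the others.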

How the results depend on the processing

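The median change of the tested proteasome genes in M+D+ against M-D+ was negative under every alternative tried, whereas most counts depended on scaling. Against the pooled controls, 16 genes passed on deposited CPM (2.32% of all rows rose and 20.7% fell) and 3 after TMM (5.27% and 5.81%). With no filter on low values 7 of 53 genes passed, where 0.55% of 13266 rows rose and 3.67% fell. edgeR called 2 (6.55% and 3.26% of all rows), DESeq2 2 (7.12% and 4.54%) and a replicate block 8 (1.42% and 14.5%). The count was 0 against the average of the groups without doxycycline alone (1.49% and 6.75%), also with TMM as well. It was 3 with TMM and a filter on the 6 libraries outside M-D+ (6.45% and 6.96% of such rows). Leaving out 1 library gave 0 to 18 (0 without M+D+ replicate 1), and 0 to 4 with TMM. Against M-D-, 0 passed, but 4 with a filter of 20 CPM, and 0 to 2 with 1 library left out (0 to 1 with TMM). Against M-D+, 29 passed, 12 with TMM, 12 in edgeR, 11 in DESeq2 and 12 with TMM and the filter on 6 libraries; leaving out 1 library gave 20 to 28, and 0 to 7 with TMM (0 without M+D+ replicate 1, 6 without M+D+ replicate 2, 5 and 4 without M-D+ replicate 1 or 2, and 3 to 7 without 1 of the others). In M-D+ against M-D-, 16 passed, where 422 of 4577 rows rose. With a pseudocount of 0.5 it was 8 genes (213 rows rose), and with a pseudocount of 5 it was 20 (662 rows rose). It was 0 with TMM, with no filter, in edgeR, in DESeq2, with a replicate block, and with TMM and the filter on 6 libraries. For the interaction, 9 passed, and 0 with TMM, with no filter, in edgeR, in DESeq2, with a replicate block, and with TMM and the filter on 6 libraries; leaving out 1 library gave 0 to 8, and 0 with TMM. The summed level of M+D+ over the mean of the controls was -0.91 on the log2 scale, -0.34 with TMM, and -1.14 to -0.72 with 1 library left out; that of M-D+ over M-D- was 1.1, or 0.29 with TMM. The cause of these differences was not tested. Counts with a filter of 20 CPM or with a library left out are given without the share of all rows, and are not results about the proteasome genes. Of the 58 called values of proteasome genes named by the rule, 11 passed with TMM, 10 in edgeR, 8 in DESeq2 and 29 with a replicate block, and none changed sign.

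No positive pairing by replicate number was seen: the correlation of deviations from the group means between libraries of the same number was -0.33 to 0.045 over the 6 pairs of groups. Replicate numbers need not mark a batch, so a pairing or batch across different numbers was not tested. A value of 0 allows a level of up to 0.469 to 1.78 CPM by library (3 tags), which limits psmb8a, psmb9a and psmb13a.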
